A study of Homo sapiens with 12 samples.

Results

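The 10 amino acid transporter genes described here encode carriers of the plasma membrane, and their transcripts were followed through treatment with a Wee1 inhibitor, an Hsp90 inhibitor and both drugs. They are SLC7A11, SLC3A2, SLC7A5, SLC43A1, SLC7A1, SLC1A4, SLC1A5, SLC38A1, SLC38A2 and SLC6A9. They were listed by name, as 10 of the 19775 genes measured. All 10 had at least 1 probe set that carried no other gene's name, and each is described by its main probe set, the one with the highest mean signal over 11 arrays. A signal is the deposited linear intensity of a probe set, and a change is a difference of log2 signals.

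Many amino acid carriers work as exchangers, which give up one amino acid to take in another, or as cotransporters driven by sodium. Others, such as SLC43A1, are facilitative carriers. SLC7A11 is the light chain of the cystine and glutamate exchanger and SLC7A5 that of the large neutral amino acid exchanger of system L. Both are held at the membrane by the heavy chain SLC3A2. When amino acids run short or protein folding in the endoplasmic reticulum fails, the kinases that act on initiation factor eIF2 favour translation of the transcription factor ATF4, whose known targets include several of these carriers and enzymes that make amino acids. Cystine brought in by SLC7A11 feeds glutathione synthesis, and leucine brought in by SLC7A5 is sensed by the growth kinase complex mTORC1.

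RNA was measured on 12 Affymetrix 3-prime expression arrays in 4 groups of 3, all labelled PC3, a prostate cancer line grown in DMEM with serum. The untreated controls received vehicle. Single-drug groups received Wee1 inhibitor II at 2.5 µM or 17-AAG, an inhibitor of the chaperone Hsp90, at 40 nM, and a further group received both drugs. By the protocol 17-AAG followed Wee1 inhibitor II by 24 h, and the harvest came another 48 h later. The submitters left control replicate 2 out for weak signal, so the comparisons used 11 arrays, 2 of control (replicates 1 and 3) and 3 of each treated group. Nothing states that replicates were separate cultures, so a p-value here measures spread that may be technical, between these samples only.

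The label PC3 went against the markers of the 11 arrays. The pigment cell gene MLANA had a signal of 2865 to 9916 on them, and PMEL, TYR, SOX10, MITF and TYRP1 were also bright. CTNNA1 and STAT3, which are deleted in PC3, gave 2559 to 5039.7 and 819 to 1296, while the prostate gene HOXB13 reached at most 11.3 and EPCAM at most 26.2. Control replicate 2, which was left out, had 2.67 for MLANA, 1.57 for CTNNA1, 7.54 for STAT3, 2087 for HOXB13 and 1096 for EPCAM. The other measured prostate markers were less clear. KRT18 was present on the 11 arrays at 453 to 650, against 2238 on control replicate 2, and KRT8 had 25.8 to 45.5 against 615. KLK3 (41.8 to 90.2 against 79.9) and CDH1 (1.79 to 13.2 against 5.55) did not separate them. The summed signal of the 6 measured of 7 pigment cell markers differed between groups. It ran from 31680.2 to 33240.3 on the control arrays and from 25705 to 28256 with Wee1 inhibitor II. With 17-AAG it ran from 39321 to 44640.5, and with both drugs from 46545 to 48136. With Wee1 inhibitor II the single markers went both ways. Geometric means were lower than on the control arrays for MLANA (7045 to 3094), PMEL (5934 to 4040) and MITF (4627 to 2711). They were higher for TYR (2153 to 3713), SOX10 (1370 to 1547) and TYRP1 (11307 to 12126). The part of these marker differences in the results below was not tested. In bulk RNA fewer cells of a type and less RNA per cell cannot be told apart.

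The label 17-AAG was checked with heat shock genes, which Hsp90 inhibitors are known to raise. None of the 11 measured of 14 rose on the arrays labelled 17-AAG and 5 fell, where 9.93% of all genes rose and 6.8% fell. HSPA1A, HSPA1B and HSPA8 were the listed genes not measured, so the check does not cover them. Changes are therefore given for the libraries labelled 17-AAG. DNAJB1, which codes for a cochaperone, fell from 1192 to 510.0, a log2 difference of -1.22 ± 0.09 (SE, adjusted p = 0.000375). The gap between the 3-prime and 5-prime probe sets of ACTB, a measure of RNA or labelling quality, averaged 0.69 ± 0.03 (log2, SD, n = 2) for control and 0.68 ± 0.09 (n = 3) for Wee1 inhibitor II. Arrays labelled 17-AAG averaged 0.96 ± 0.08 (n = 3) and those of both drugs 0.96 ± 0.05 (n = 3). The same gap of GAPDH differed far less, at -0.063 ± 0.004 for control and -0.050 ± 0.036 for Wee1 inhibitor II. It was -0.037 ± 0.037 for 17-AAG and -0.012 ± 0.021 for both drugs. The part of these gaps in the changes was not tested.

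Stretches of 3 promoters are shown because these genes moved in different ways: SLC1A4 and SLC38A2 were higher on every treated array and SLC7A5 was lower with Wee1 inhibitor II alone. Each runs from 200 bases before to 10 bases after a transcription start in RefSeq, GRCh38.p14, 5′ to 3′ on the gene's strand, and capitals mark matches to the motifs searched. The SLC1A4 stretch, of the start that lies further downstream, is chr2:64989199-64989408 on the plus strand. That of SLC38A2 is chr12:46372764-46372973 and that of SLC7A5 chr16:87869498-87869707, both on the minus strand.
SLC1A4: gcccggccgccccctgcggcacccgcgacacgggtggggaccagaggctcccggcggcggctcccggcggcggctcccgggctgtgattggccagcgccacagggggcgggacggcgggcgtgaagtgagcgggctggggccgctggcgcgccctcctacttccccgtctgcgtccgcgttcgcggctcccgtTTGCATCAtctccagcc
SLC38A2: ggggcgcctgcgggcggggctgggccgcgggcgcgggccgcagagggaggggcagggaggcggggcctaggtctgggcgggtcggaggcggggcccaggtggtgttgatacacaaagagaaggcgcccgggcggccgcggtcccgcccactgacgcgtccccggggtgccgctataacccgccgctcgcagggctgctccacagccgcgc
SLC7A5: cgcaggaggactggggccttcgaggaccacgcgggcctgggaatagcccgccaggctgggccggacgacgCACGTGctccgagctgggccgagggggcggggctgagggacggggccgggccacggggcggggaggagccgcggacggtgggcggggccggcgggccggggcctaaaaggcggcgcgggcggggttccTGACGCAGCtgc

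The motifs were searched on both strands of 300-base windows, 250 bases before to 50 after each start, and a match is a description of letters only. TGATGNAA, the core that amino acid response elements share, was in 3.62% of all 35116 windows and in 5 of the 16 windows of the 9 members other than SLC7A11, 1 window each of SLC1A4, SLC1A5, SLC3A2, SLC38A1 and SLC7A1. The SLC1A4 match above reads TTGCATCA because it lies on the opposite strand. The window of the other SLC1A4 start, further upstream and not printed, held no match to any of the 3 motifs. TGACNNNGC, the core of antioxidant response elements, was in 13.3% of all windows and 4 member windows, and CACGTG, the E-box, in 7.26% and 3. The SLC7A5 stretch holds both of these, with CACGTG starting at position -130 and TGACGCAGC at -2, and the SLC38A2 stretch holds none of the 3.

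Against control, the same 3 carriers passed the test in each treated group: SLC7A11, SLC1A4 and SLC38A2 rose with Wee1 inhibitor II, with 17-AAG and with both drugs. SLC7A5 fell with Wee1 inhibitor II alone. The 3 comparisons share the control arrays, so a chance low value there would enter all of them. Genes were called in limma at an adjusted p under 0.05 over all 19775 genes. With Wee1 inhibitor II 3 of 10 members rose and 1 fell, where 14.5% of all genes rose and 10.3% fell. With 17-AAG 3 rose and 0 fell, beside 9.93% and 6.8% of all genes. An unadjusted p under 0.05 was found for 5 of the 10 and for 5628 of all 19775 genes. With both drugs 3 rose and 0 fell, beside 16.7% and 11.3%. There 4 of the 10 and 7277 of the 19775 genes had an unadjusted p under 0.05. Bright genes were called more often: of the 8278 with a mean signal of at least 100, 23.3%, 18.4% and 27% rose in the same order, so a share of 3 in 10 lay near that background for Wee1 inhibitor II and both drugs. The median log2 difference of the members was 0.25, 0.40 and 0.39, against 0.12, 0.01 and 0.11 for all genes. With each array centred on its median, 33.4% of the genes called with Wee1 inhibitor II were higher in place of 58.5%, and 40.8% in place of 59.7% with both drugs. Under quantile normalisation SLC7A11, SLC1A4 and SLC38A2 were called in all 3 groups. Under that centring SLC7A11 and SLC38A2 were, but SLC1A4 lost its call with 17-AAG and with both drugs. In a fit of only the 5 arrays of control and 17-AAG no gene was called and 4816 genes had an unadjusted p under 0.05, among them 3 members.

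**Figure D1:**
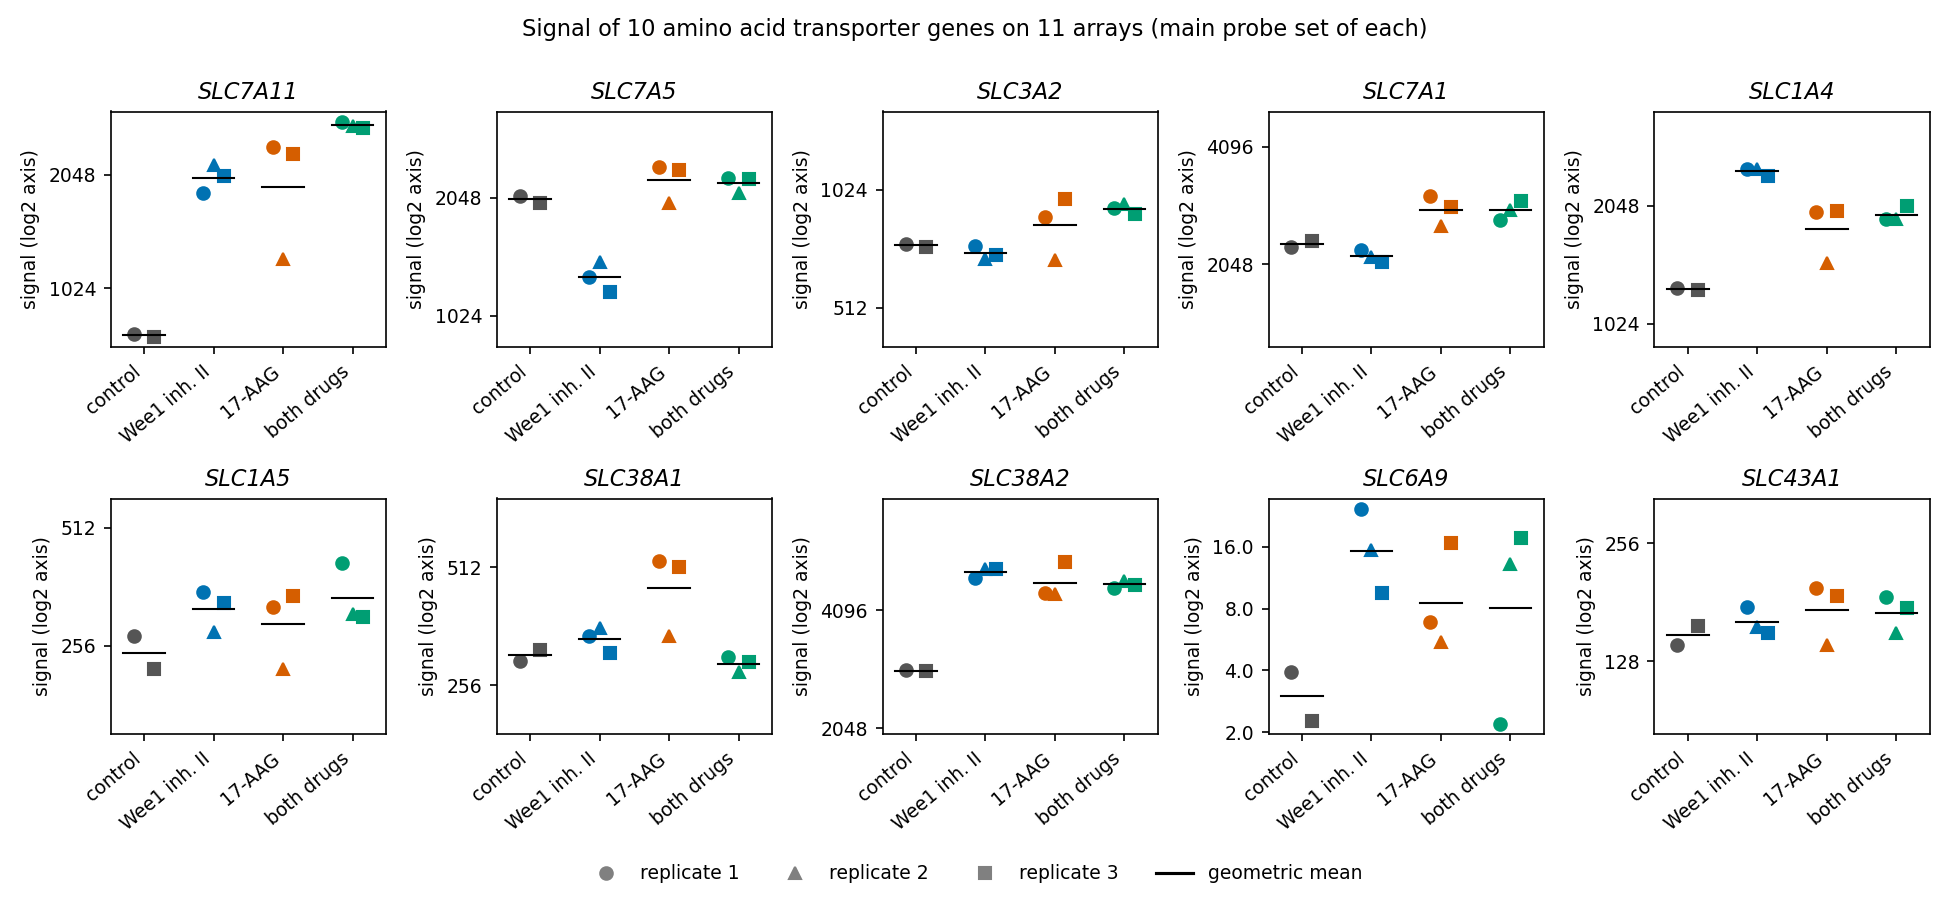
Signal of each of the 10 transporter genes on each array (log2 vertical axis, one panel per gene), with arrays grouped by treatment, a marker shape per replicate number and a bar at each group's geometric mean. SLC7A11, SLC1A4 and SLC38A2 lie above both control arrays on all 9 treated arrays, and 17-AAG replicate 2 is the lowest of the 3 arrays labelled 17-AAG in every panel.

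SLC7A11, the cystine and glutamate exchanger, had the largest rise among the called members. Its signals were 777 and 764 on the control arrays and 1835, 2170.5 and 2029.5 with Wee1 inhibitor II. With 17-AAG they were 2426, 1226 and 2319.6, and with both drugs 2823, 2764 and 2723. Every treated array lay above both controls, and the 3 arrays with both drugs lay above all others. The log2 difference from control was 1.38 ± 0.26 (SE, adjusted p = 0.00635) with Wee1 inhibitor II and 1.31 ± 0.26 (adjusted p = 0.0126) with 17-AAG. With both drugs it was 1.85 ± 0.26 (adjusted p = 0.00122), a 3.6-fold rise. The rise labelled 17-AAG was not called without control replicate 1 (1.32, adjusted p = 0.0682) or control replicate 3 (1.29, adjusted p = 0.0709). Both drugs did not differ beyond the test from 17-AAG (0.54 ± 0.24, 95% interval -0.0024 to 1.08, adjusted p = 0.163) or from Wee1 inhibitor II (0.46 ± 0.24, -0.08 to 1.01, adjusted p = 0.272). Without 17-AAG replicate 2, the array described further on, the difference of both drugs from Wee1 inhibitor II was called at the same size (0.46 ± 0.08, adjusted p = 0.00984). That array is in neither group and only adds to the shared spread. It was singled out for its values in these genes, so that call is no independent support.

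SLC3A2, the heavy chain that carries SLC7A11 and SLC7A5 to the membrane, was not called in any of the 7 comparisons. Its signals were 746 and 732 on the control arrays, 738, 682 and 698 with Wee1 inhibitor II, and 870.1, 677 and 973 with 17-AAG. With both drugs they were 922, 941 and 887, above both controls and every array with Wee1 inhibitor II. That difference from control was 0.31 ± 0.14 (adjusted p = 0.155), and from Wee1 inhibitor II 0.38 ± 0.13 (adjusted p = 0.0963). Without 17-AAG replicate 2, which is in neither pair of groups but adds to the shared spread, SLC3A2 was called in both, with adjusted p of 0.0312 and 0.0170. That array was singled out for its values in these genes, so these calls are no independent support.

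SLC7A5, the light chain of the leucine-carrying system L exchanger, was the one member that fell in any treated group against control. The control arrays gave 2069.9 and 1989.9, and Wee1 inhibitor II 1286, 1402 and 1178. With 17-AAG the signals were 2453, 1989 and 2410.5, and with both drugs 2304, 2105 and 2285. All 3 arrays with Wee1 inhibitor II alone lay below the other 8. It fell by 0.66 ± 0.12 (log2, SE, adjusted p = 0.00519) with Wee1 inhibitor II, to 0.63 of the control signal. The difference from control was 0.16 ± 0.12 (adjusted p = 0.443) with 17-AAG and 0.14 ± 0.12 (adjusted p = 0.489) with both drugs. Both drugs lay 0.79 ± 0.11 above Wee1 inhibitor II (adjusted p = 0.00192), and Wee1 inhibitor II lay below 17-AAG by -0.82 ± 0.11 (adjusted p = 0.00139). These 3 differences were called with any of the 11 arrays left out.

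SLC43A1, a facilitative carrier of large neutral amino acids, was not called in any comparison. Its signals were 141 and 157 on the control arrays, 176, 157 and 152 with Wee1 inhibitor II, 197, 141 and 188 with 17-AAG, and 187, 151 and 175 with both drugs. The groups overlapped in every pair. Its largest difference from control was 0.22 ± 0.17 (adjusted p = 0.457), with 17-AAG.

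SLC7A1, the main carrier of arginine and lysine, separated the groups with and without 17-AAG. Signals were 2268 and 2353 on the control arrays and 2232, 2144 and 2072 with Wee1 inhibitor II. With 17-AAG they were 3056, 2567 and 2873, and with both drugs 2662, 2827 and 2971. All 6 arrays with 17-AAG lay above the other 5. Both drugs lay 0.39 ± 0.09 above Wee1 inhibitor II (adjusted p = 0.0205) and Wee1 inhibitor II lay below 17-AAG by -0.39 ± 0.09 (adjusted p = 0.0161). Against control, neither 17-AAG (0.29 ± 0.10, adjusted p = 0.0850) nor both drugs (0.29 ± 0.10, adjusted p = 0.0638) was called. The rise over Wee1 inhibitor II was lost without replicate 2 or 3 of Wee1 inhibitor II or of both drugs (0.35 to 0.39, adjusted p 0.0601 to 0.0772) and with the replicate number as a block (0.39, adjusted p = 0.0533). The difference between the single drugs was lost without 17-AAG replicate 1 or 3 or Wee1 inhibitor II replicate 3 (-0.34 to -0.38, adjusted p 0.0519 to 0.0576).

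SLC1A4, an exchanger of alanine, serine and cysteine, rose most with Wee1 inhibitor II. Signals were 1266 and 1251 on the control arrays and 2543, 2546 and 2443 with Wee1 inhibitor II, 1976, 1464 and 1989 with 17-AAG, and 1900.1, 1898 and 2042 with both drugs. The arrays with Wee1 inhibitor II alone lay above all others, and all treated arrays above both controls. The differences from control were 1.00 ± 0.14 (adjusted p = 0.00133) with Wee1 inhibitor II, 0.51 ± 0.14 (adjusted p = 0.0365) with 17-AAG and 0.63 ± 0.14 (adjusted p = 0.00912) with both drugs. Wee1 inhibitor II lay 0.49 ± 0.12 above 17-AAG (adjusted p = 0.0260). The rise labelled 17-AAG was near the threshold. It was called without 17-AAG replicate 2 (0.66, adjusted p = 0.00325) but with none of the 10 other arrays left out (0.43 to 0.52, adjusted p 0.0553 to 0.148), and it was lost with each array centred on its median (0.52, adjusted p = 0.0737). The rise with both drugs was lost without control replicate 3 (0.62, adjusted p = 0.0540) and with that centring (0.43, adjusted p = 0.0855). The difference between the single drugs was lost without any 1 array of Wee1 inhibitor II (0.48 to 0.51, adjusted p 0.0615 to 0.0739) or with that centring (0.25, adjusted p = 0.296).

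SLC1A5, the glutamine carrier related to SLC1A4, was not called in any of the 7 comparisons. Its signals were 271 and 223 on the control arrays, 352, 278 and 329.8 with Wee1 inhibitor II, 320.4, 224 and 343 with 17-AAG, and 415, 308 and 302 with both drugs. The arrays with Wee1 inhibitor II and with both drugs lay above both controls, by 0.37 ± 0.23 (adjusted p = 0.296) and 0.46 ± 0.23 (adjusted p = 0.183). The 95% interval of the second was -0.06 to 0.98, so a rise of the size seen in SLC38A2 lies within it. With the replicate number as a block the difference with both drugs was called (0.58 ± 0.16, adjusted p = 0.0447).

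SLC38A2, the system A carrier of small neutral amino acids such as alanine and glutamine, rose by a similar amount in every treated group. Signals were 2880.2 and 2873 on the control arrays and 4951, 5215 and 5229 with Wee1 inhibitor II. With 17-AAG they were 4542, 4512 and 5447, and with both drugs 4682, 4883 and 4771. All 9 treated arrays lay between 4512 and 5447, above both controls. The differences from control were 0.83 ± 0.10 (adjusted p = 0.000702) with Wee1 inhibitor II, 0.74 ± 0.10 (adjusted p = 0.00250) with 17-AAG and 0.73 ± 0.10 (adjusted p = 0.000893) with both drugs. Each was called with any of the 11 arrays left out. Between treated groups the differences were -0.10 to 0.09, with adjusted p of 0.545 to 0.954.

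SLC38A1, the related carrier that brings in glutamine, had its highest signals on arrays labelled 17-AAG alone. Signals were 296 and 315 on the control arrays, 342, 358 and 309 with Wee1 inhibitor II, 532, 342 and 514 with 17-AAG, and 303, 277 and 293 with both drugs. All 3 arrays labelled 17-AAG lay above the controls and above both drugs, but replicate 2 lay within the range of Wee1 inhibitor II. Both drugs lay below 17-AAG by -0.64 ± 0.16 (adjusted p = 0.0288), and 17-AAG differed from control by 0.57 ± 0.18 (adjusted p = 0.0732). The first of these was lost without 17-AAG replicate 1 or 3 or any 1 array of both drugs (-0.53 to -0.67, adjusted p 0.0652 to 0.0911) and with the replicate number as a block (adjusted p = 0.0507). Control replicate 2, which was left out and carries other marker genes, had 3228.

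SLC6A9, a glycine carrier, gave 2.21 to 24.4 over the 11 arrays, near or under the array medians of 17.7 to 23.1. Its signals were 3.94 and 2.27 on the control arrays and 24.4, 15.5 and 9.49 with Wee1 inhibitor II. The difference was 2.36 ± 0.91 (adjusted p = 0.101), and signals this low have no firm order. The other groups, with 6.87, 5.48 and 16.7 for 17-AAG and 2.21, 13.3 and 17.7 for both drugs, overlapped each other.

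**Figure D2:**
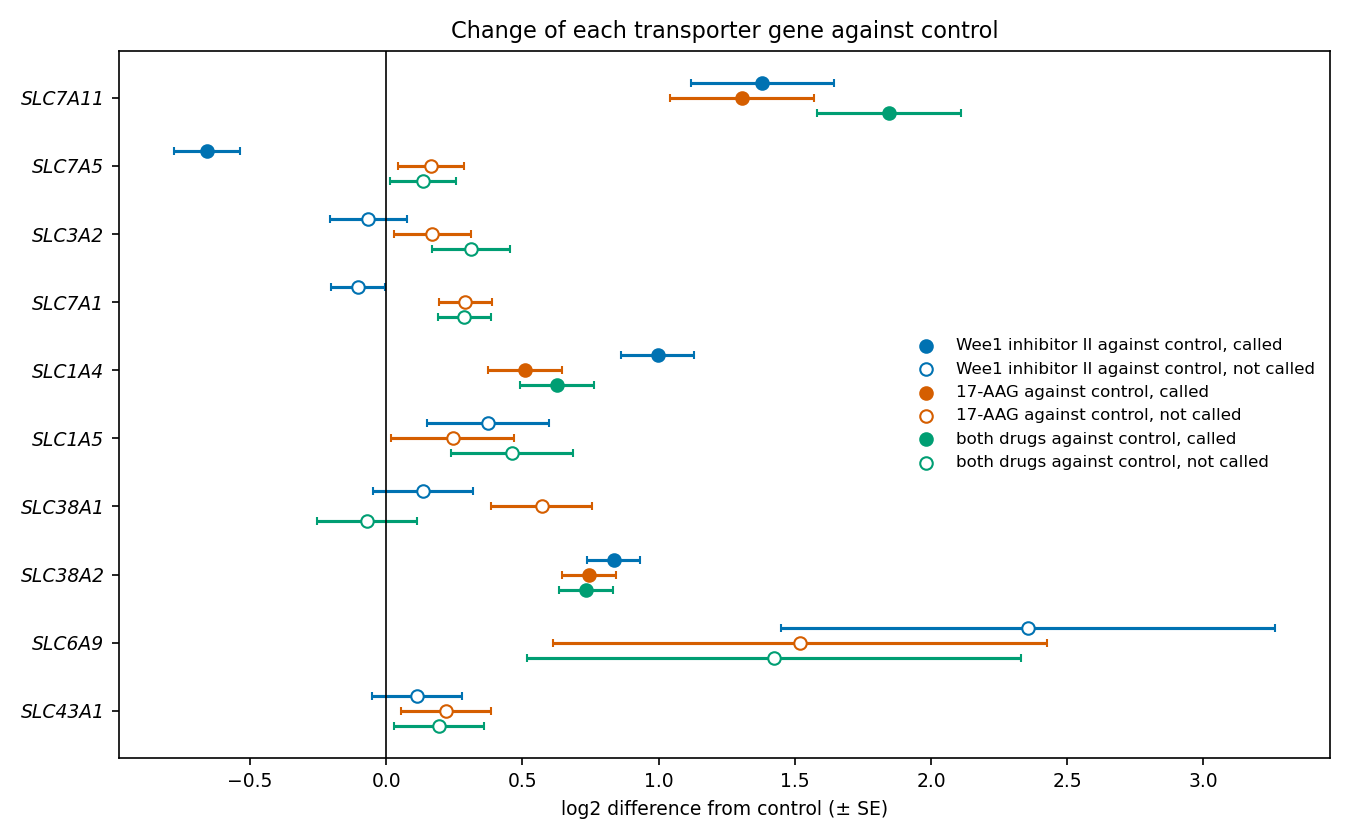
Difference of mean log2 signal from control (horizontal axis, ± SE of the limma fit) for each transporter gene with Wee1 inhibitor II, 17-AAG and both drugs; filled points passed the test and open points did not. SLC7A11, SLC1A4 and SLC38A2 are filled in all 3 groups, and SLC7A5 is filled only with Wee1 inhibitor II, at -0.66.

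The treated groups were also compared directly. Of the 10 members, 0 were higher and 1, SLC38A1, was lower with both drugs than with 17-AAG, beside 10.9% and 8.43% of all genes. With each array centred on its median, 25.2% of the genes called in that comparison were higher in place of 56.3%. Against Wee1 inhibitor II, 2 members, SLC7A5 and SLC7A1, were higher with both drugs and 0 lower, beside 7.27% and 6.84%. In that comparison 4 of the 10 and 5108 of all 19775 genes had an unadjusted p under 0.05. Between the single drugs, SLC1A4 was higher with Wee1 inhibitor II and SLC7A5 and SLC7A1 were lower, 1 and 2 members beside 10.2% and 8.52% of all genes, and the same centring left 21.7% of the called genes higher in place of 54.4%.

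Whether the drugs acted independently on the log2 scale was tested as an interaction, the change with both drugs minus the sum of the single-drug changes. It was called for 3 members, 1 above and 2 below the sum, beside 4.82% and 6.97% of all genes. SLC38A2 rose by 0.73 with both drugs where the single drugs summed to 1.58, an interaction of -0.85 ± 0.13 (adjusted p = 0.00642). SLC1A4 rose by 0.63 against a sum of 1.51, an interaction of -0.88 ± 0.18 (adjusted p = 0.0195) that was lost without control replicate 1 (adjusted p = 0.0636) or 3 (adjusted p = 0.0671) and with each array centred on its median (adjusted p = 0.0518). SLC7A5 had a value of 0.14 with both drugs against a sum of -0.49, an interaction of 0.63 ± 0.16 (adjusted p = 0.0418). It was called with 1 of the 11 arrays left out, Wee1 inhibitor II replicate 2, and was 0.53 to 0.69 with adjusted p 0.0514 to 0.127 without any other. With the replicate number as a block its adjusted p was 0.101, with quantile normalisation 0.0745 and with median centring 0.0982. SLC7A11 had -0.84 ± 0.35 (adjusted p = 0.186) and SLC38A1 -0.78 ± 0.25 (adjusted p = 0.0851). Over the 10 members 7 lay below the sum and 3 above, and the 7 include SLC6A9 (-2.45), whose signals are too low for a firm order. The median was -0.47 against -0.03 for all genes, so genes in general also leaned below the sum. The same control arrays enter the sum a second time, so a low control value would by itself put members below it.

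**Figure D3:**
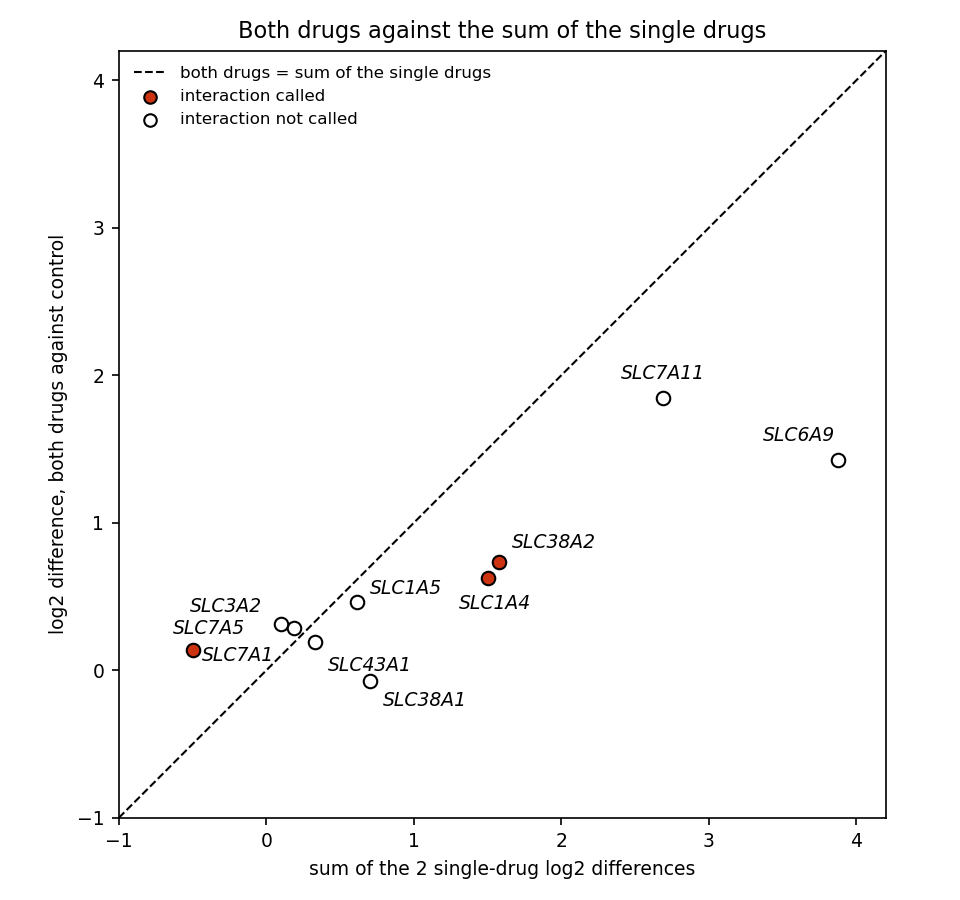
For each of the 10 genes, the log2 difference with both drugs from control (vertical) against the sum of the 2 single-drug differences (horizontal); the dashed line marks equality and filled points had a called interaction. SLC38A2 at 0.73 against 1.58 and SLC1A4 at 0.63 against 1.51 lie below the line, and SLC7A5 at 0.14 against -0.49 above it.

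One array stood apart for these genes. 17-AAG replicate 2 was the lowest of the 3 arrays labelled 17-AAG for all 10 members and also the nearest to the control mean for all 10. Among all 8278 bright genes it was lowest for 39.3% and nearest to control for 48.4%. For a gene whose mean lies above control, being lowest and being nearest to control are nearly the same observation. The bright genes include falling ones, for which they are not. Over 809 genes called at 2-fold or more from the other arrays, it had a median of 78.8% of their shift from control, where the other 8 treated arrays had 93.1% to 102% of theirs. For SLC7A11 it had 41.3% of the shift, for SLC1A4 33.2% and for SLC38A1 20.8%. For SLC38A2 it had 82.2%, close to the 83.9% of 17-AAG replicate 1, so it did not stand apart there. Which property of the array goes with this was not tested.

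Leaving this array out changed several calls. It was singled out for its low values in these genes, so leaving it out raises their means for 17-AAG by construction. Leaving it out also narrows the shared spread of genes such as SLC7A11 and SLC3A2, which enters comparisons without the 17-AAG group. The calls gained are no independent support. Against control the libraries labelled 17-AAG then had 5 members higher, beside 9.46% of all genes, in place of 3. SLC7A11 rose by 1.62 ± 0.10 (adjusted p = 0.000438), SLC38A2 by 0.79 ± 0.10 (adjusted p = 0.00398) and SLC38A1 by 0.77 ± 0.10 (adjusted p = 0.00396). SLC1A4 rose by 0.66 ± 0.08 (adjusted p = 0.00325) and SLC7A1 by 0.36 ± 0.09 (adjusted p = 0.0401). With both drugs 5 members were higher than control, beside 16.7% of all genes, SLC3A2 and SLC7A1 being added. Both drugs against Wee1 inhibitor II gave 4 higher and 1 lower, beside 7.32% and 6.94% of all genes. Wee1 inhibitor II against 17-AAG gave 1 higher and 4 lower, beside 8.33% and 7.14%. The interaction was then called for 4 members, all below the sum, beside 6.73% of all genes: SLC7A11 (-1.16 ± 0.13), SLC1A4 (-1.02 ± 0.10), SLC38A1 (-0.98 ± 0.13) and SLC38A2 (-0.89 ± 0.13), with adjusted p of 0.00256 to 0.00826. That of SLC7A5 was 0.53 ± 0.14 (adjusted p = 0.0514).

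**Figure D4:**
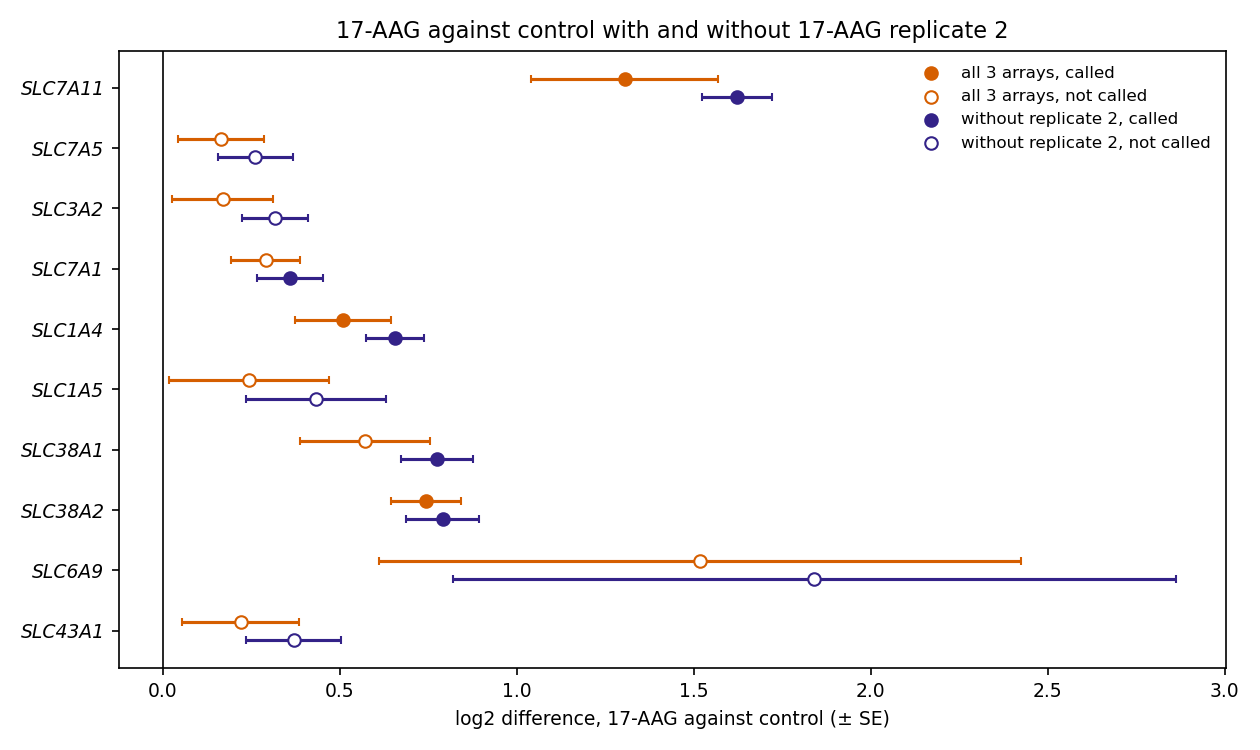
Difference of mean log2 signal between 17-AAG and control (horizontal axis, ± SE) for each gene, with all 3 arrays labelled 17-AAG and without replicate 2; filled points passed the test. Without that array SLC38A1 moves from 0.57 to 0.77 and SLC7A11 from 1.31 to 1.62, and 5 genes are filled in place of 3.

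The 10 members had 25 probe sets in all. Members with several were compared over all of theirs, in a fit with every probe set of the array, whose adjusted p-values are larger. All 3 probe sets of SLC38A2 rose in each treated group, by 0.66 to 0.92, and had a called interaction of -0.85 to -1.04. For SLC7A11, a second bright probe set with a mean signal of 1470.4 rose by 1.42 ± 0.27, 1.26 ± 0.27 and 1.81 ± 0.27 with Wee1 inhibitor II, 17-AAG and both drugs. A dimmer one with a mean signal of 102 rose with both drugs (1.05 ± 0.22, adjusted p = 0.0143) and had 0.69 and 0.55 with the single drugs, not called. Of the 5 probe sets of SLC1A4, 4 rose with Wee1 inhibitor II, by 1.00 to 1.24, and the fifth, with a mean signal of 154, had 0.71 (adjusted p = 0.0593). None of the 5 was called with 17-AAG in that fit. With both drugs the same 4 rose, by 0.63 to 1.06, while the fifth had 0.087 (adjusted p = 0.852). The interaction was -0.61 to -1.16 over the 5 and was called on 1 of them (-0.89, adjusted p = 0.0480), not on the main probe set (adjusted p = 0.0549).

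Probe sets of SLC38A1 and SLC7A1 disagreed more. For SLC38A1, 3 of 4 probe sets had their largest difference from control with 17-AAG, of 0.41 to 0.84, while the fourth, with a mean signal of 8.4, had -1.80 ± 1.03. For SLC7A1, none of the 5 probe sets was called in any comparison of that fit. Both drugs against Wee1 inhibitor II gave 0.39 on the main probe set (adjusted p = 0.0727) and 0.05 ± 0.19 on one with a mean signal of 474. The 3 dimmer ones, with mean signals of 98.9, 19.7 and 17.7, had -0.014, 0.36 and -0.18. For Wee1 inhibitor II against 17-AAG the main probe set had -0.39 (adjusted p = 0.0558) and the next brightest -0.19 ± 0.19, and the 3 dimmer ones had 0.078, -0.58 and 1.10. The calls of SLC7A1 given above were made on the main probe set alone, and 2 of the other 4 had both differences in the same direction.

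**Figure D5:**
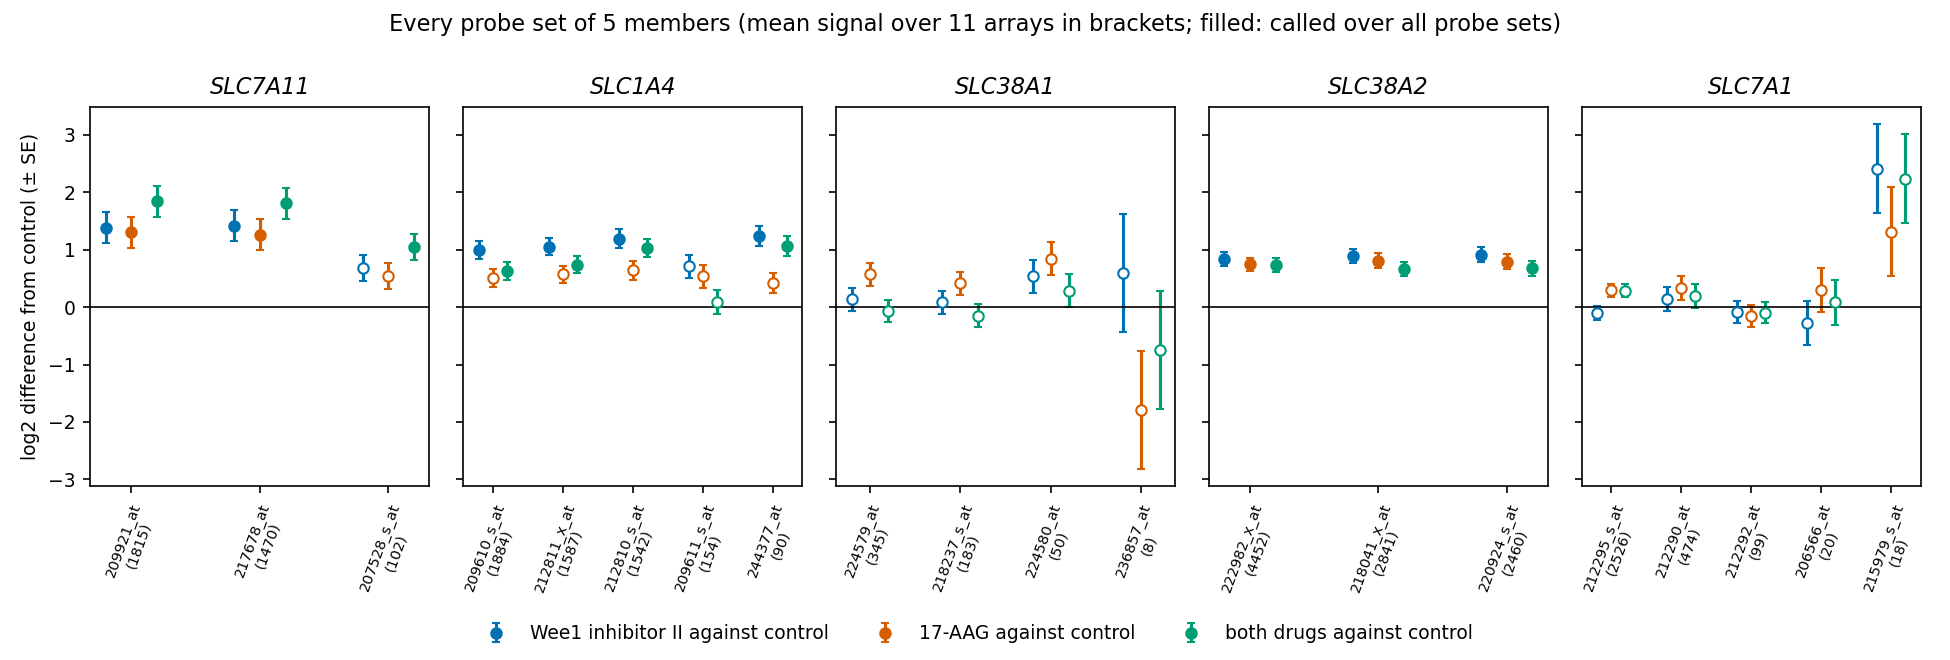
Difference of log2 signal from control (vertical axis, ± SE) with Wee1 inhibitor II, 17-AAG and both drugs for every probe set of the 5 members that have several, with each probe set's mean signal in brackets; filled points were called over all probe sets. The 3 probe sets of SLC38A2 are filled in all 3 groups, and those of SLC7A1 in none.

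The genes around these carriers were described from lists chosen with earlier results known. Of all genes 14.5% rose with Wee1 inhibitor II, 9.93% with 17-AAG and 16.7% with both drugs. Of the 20 amino acid response regulators and targets, all measured, 18 rose with Wee1 inhibitor II, 16 with 17-AAG and 15 with both drugs, and none fell. Their median difference was 1.36, 1.02 and 1.18. ASNS, which makes asparagine, rose from 1269 to 6505, 4136 and 6266, by 2.36 ± 0.14, 1.71 ± 0.14 and 2.30 ± 0.14 (adjusted p = 4.88e-05, 0.000436 and 2.40e-05). PHGDH, which starts serine synthesis, rose by 1.97 ± 0.10, 1.36 ± 0.10 and 1.94 ± 0.10, and the stress gene NUPR1 by 2.34 ± 0.20, 1.87 ± 0.20 and 2.50 ± 0.20. Interactions were called for 14 of the 20, all below the sum, beside 6.97% of all genes. Among the 14 were ASNS (-1.76 ± 0.18), PHGDH (-1.39 ± 0.14) and ATF3 (-2.44 ± 0.26). The called interactions of SLC38A2 and SLC1A4 have the same sign, that of SLC7A5 the opposite one.

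Other amino acid transporters, 38 of 40 measured, moved in both directions. With Wee1 inhibitor II 7 rose and 10 fell, with 17-AAG 2 and 5, and with both drugs 6 and 9. In the same order, 14.5% of all genes rose and 10.3% fell, 9.93% and 6.8%, and 16.7% and 11.3%. SLC36A1, a proton-coupled carrier found on lysosomes, fell in all 3 groups, with differences of -1.07 ± 0.13, -0.89 ± 0.13 and -1.17 ± 0.13 in that order. SLC43A3, a nucleobase carrier of the same family as SLC43A1, had -0.96 ± 0.09, -0.62 ± 0.09 and -1.27 ± 0.09. SLC16A10, a carrier of aromatic amino acids, fell by 1.67 ± 0.20 with Wee1 inhibitor II (adjusted p = 0.000816). The interaction was called for 4 of the 38, all above the sum, beside 4.82% of all genes. The 4 included the lysosomal exporters SLC38A7 (1.23 ± 0.14), CTNS (0.95 ± 0.16) and SLC66A1 (1.05 ± 0.21).

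Glutathione and NRF2 target genes, which act downstream of cystine uptake or share its regulator, moved in both directions. Of 22 measured, 8 rose and 7 fell with Wee1 inhibitor II, 4 and 6 with 17-AAG and 6 and 8 with both drugs. The shares of all genes were 14.5% and 10.3%, 9.93% and 6.8%, and 16.7% and 11.3%. GCLM, a subunit of the enzyme that starts glutathione synthesis, fell by 1.07 ± 0.09 with 17-AAG and by the same amount with both drugs. CHAC1, which degrades glutathione and is also in the response list, rose by 2.70 ± 0.29 with Wee1 inhibitor II and 2.64 ± 0.29 with 17-AAG. SRXN1, an antioxidant repair enzyme, fell in the 3 groups, with -0.68 ± 0.10, -0.93 ± 0.10 and -1.22 ± 0.10. A link of these genes to the rise of SLC7A11 was not tested.

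Among 28 measured genes of amino acid sensing by mTORC1, 4 rose and 4 fell with Wee1 inhibitor II, 6 and 1 with 17-AAG, and 8 and 4 with both drugs. Over all genes 14.5% rose and 10.3% fell, 9.93% and 6.8%, and 16.7% and 11.3%, in that order. The leucine sensor SESN2 rose by 2.59 ± 0.29, 2.61 ± 0.29 and 2.31 ± 0.29. FNIP2, a partner of folliculin, fell by 1.62 ± 0.10 with Wee1 inhibitor II, from 1223 to 399. Of 15 measured genes of glutamine and glutamate metabolism and MYC, 5 rose and 3 fell with Wee1 inhibitor II, 5 and 1 with 17-AAG, and 4 and 1 with both drugs. The same shares of all genes stand beside these counts. Glutamine synthetase GLUL rose by 0.92 ± 0.08 with 17-AAG (adjusted p = 0.000492) and 0.63 ± 0.08 with both drugs (adjusted p = 0.000531).

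Over the 11 arrays, the genes whose log2 signals ran closest to SLC7A11 among 8269 with a mean signal of at least 100 were JMY (Pearson's r = 0.976), PLEKHM3 (0.973), RHOT1 (0.972) and KLHDC10 (0.969). For SLC7A5 they were ABHD10 (0.964), TMCC3 (0.962), RAP2B (0.961) and ACBD5 (0.960). These values describe likeness across 11 arrays in 4 groups, whose shared treatment and processing enter them.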

How the data were processed

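Partek 6.5 and RMA are named per the submitters' processing notes. The authors deposited an intensity for every probe set on each array. These intensity values are linear and have a 2% trimmed mean of 150.02 on each array, unlike RMA output, and only a log2 transform was applied here. Of 54675 probe sets, 41091 carried 1 gene symbol in the platform annotation, updated through gene IDs. The probe set with the highest mean per symbol was kept, which left 19775 genes. limma 3.58.1 (R 4.3.3) fitted 1 mean per group over 11 arrays with 7 residual degrees of freedom, with two-sided moderated tests and Benjamini-Hochberg adjustment across the 19775 genes. Errors of differences are standard errors of that fit. Its calls were tested on simulated data, but the outcome is not given here, so this lends them no support. All 10 members are described, with called genes among the 3 of smallest p of each list in a comparison, and for SLC7A11 and SLC7A5 the 4 closest genes. The members and lists were chosen with earlier results of these data known. The number of arrays limits the precision, and detection calls were not used here. Alternatives were control replicate 2 included, array weights, the replicate number as a block, another variance model, other scalings and filters, other probe set rules, fewer arrays and a stricter threshold.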

Additional observations from a re-analysis of the deposited data

Results flagged for a closer look

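The interaction term in limma was called for 3 members, and that of SLC38A2 was called with any of the 11 arrays left out. SLC38A2 rose less with both drugs than the single drugs summed to, by -0.85 on the log2 scale (adjusted p = 0.00642), and SLC1A4 likewise by -0.88 (adjusted p = 0.0195). The call of SLC1A4 was lost without either control array and with each array centred on its median (adjusted p = 0.0518). SLC7A5, which brings in leucine, lay above the sum by 0.63 (adjusted p = 0.0418): it was low with Wee1 inhibitor II alone and near control with both drugs. This call was lost in 10 of the 11 fits with 1 array left out, with the replicate number as a block (adjusted p = 0.101), with quantile normalisation (0.0745) and with median centring (0.0982). Control replicate 2, which entered no comparison, had a signal of 3228 for SLC38A1, at least 4-fold above both control arrays at 296 and 315. The glutamine carrier SLC38A1 was the only member that far above them there, and 17-AAG replicate 1 was the brightest of the other arrays at 532. SLC38A2 (6341) and the dim SLC6A9 (7.17) were also above both control arrays on it. The other members lay below both, among them SLC1A4 (114), SLC7A5 (293) and SLC7A1 (429). Control replicate 2 also differed from the 11 arrays in its cell type markers, and the part of that in these values was not tested.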

How the results depend on the processing

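Of 746 values of single members under other settings, 655 kept their direction and side of the threshold, 40 lost and 27 gained a call and 24 changed sign. With 1 array left out these were 697, 40, 13 and 20 of 770. With control replicate 2 included, 6.41%, 2.43% and 9.39% of all genes were called against control with Wee1 inhibitor II, 17-AAG and both drugs. Members called against control numbered 1 with Wee1 inhibitor II, 1 with 17-AAG and 1 with both drugs. There were 0 for both drugs against 17-AAG, 0 when set against Wee1 inhibitor II, 0 between the single drugs and 0 as an interaction, where limma still called 119 to 542 genes and members with an unadjusted p under 0.05 numbered 0, 0, 0 and 1. Signs then turned for Wee1 inhibitor II against control in SLC7A5 (0.27), SLC3A2 (0.58), SLC7A1 (0.71) and SLC38A1 (-0.997), for 17-AAG against control in SLC38A1 (-0.56), and for the interaction in SLC7A5 (-0.30), SLC3A2 (-0.44), SLC7A1 (-0.71) and SLC38A1 (0.36). That array carries other marker genes. With array weights SLC7A11 turned between the single drugs (-0.024).

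With a trended and robust variance model 5 members were called against control with 17-AAG and 5 with both drugs, 2 for both drugs against 17-AAG, 4 against Wee1 inhibitor II and 5 as an interaction, beside 22.1%, 32.1%, 24.6%, 18.7% and 17.6% of all genes. With the dimmest 40% of genes left out, which tests fewer genes, the counts were 5 for 17-AAG against control and 4 for both drugs against Wee1 inhibitor II, beside 37.3% and 31.1% of the 11865 genes tested. With every probe set tested, which tests more, they were 0 for both drugs against 17-AAG, 1 against Wee1 inhibitor II, 1 between the single drugs and 1 for the interaction. Of all probe sets 9.7%, 6.58%, 9.52% and 3.94% were called in that order. When all probe sets of a gene were averaged, 0 members were called for both drugs against 17-AAG and 1 against Wee1 inhibitor II. The shares of all genes were 12% and 8.41%. That average turned SLC7A1 for Wee1 inhibitor II against control (0.42), both drugs against 17-AAG (0.13), between the single drugs (0.0043) and the interaction (-0.29), and SLC38A1 between the single drugs (0.33). Fits of only the arrays compared gave 0 for 17-AAG against control, 0 for both drugs against 17-AAG, 4 against Wee1 inhibitor II and 1 between the single drugs. Beside these, 0%, 13.2%, 9.77% and 11.7% of all genes were called. At an adjusted p under 0.01, 1 member was called for 17-AAG against control, 0 for both drugs against 17-AAG and 1 against Wee1 inhibitor II. Between the single drugs 1 was called, and 1 for the interaction. In the same order the shares of all genes were 7.55%, 9.77%, 7.52%, 9.94% and 4.19%. In each of these fits with 0 for both drugs against 17-AAG, limma called 1932 to 5301 genes and 1 member had an unadjusted p under 0.05. For 17-AAG against control on only its arrays limma called 0 genes, with 4816 and 3 members at an unadjusted p under 0.05.

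Centring each array on its median left 1 member called for the interaction, beside 6.35% of all genes. It turned SLC38A1 (-0.092) and SLC43A1 (-0.11) for Wee1 inhibitor II against control, SLC7A5 (-0.060) and SLC43A1 (-0.0019) for both drugs against control, SLC3A2 (-0.063) and SLC1A4 (-0.087) for both drugs against 17-AAG, and SLC7A11 (-0.16), SLC1A5 (-0.11) and SLC38A2 (-0.15) between the single drugs. None of these was called before or after. The cause of the changes was not tested.

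With 1 array left out in turn, the members called against control ranged from 4 to 5 with Wee1 inhibitor II, 1 to 5 with 17-AAG and 2 to 5 with both drugs. In those fits limma called 3225 to 4891, 1705 to 3159 and 4009 to 5494 of the 19775 genes. Members called ranged from 0 to 1 for both drugs against 17-AAG, 1 to 5 against Wee1 inhibitor II, 1 to 5 between the single drugs and 1 to 4 as an interaction. The genes called there numbered 2739 to 3590, 1996 to 2819, 2719 to 3453 and 1350 to 2223. Where there were 0, limma called 2739 to 3004 genes and 1 or 2 members had an unadjusted p under 0.05. The signs that turned belonged to differences that were not called. For both drugs against 17-AAG these ranged from -0.13 to 0.026 for SLC7A5, -0.073 to 0.053 for SLC7A1, -0.18 to 0.066 for SLC43A1, -0.058 to 0.078 for SLC38A2, -0.66 to 0.84 for SLC6A9, -0.0056 to 0.26 for SLC3A2 and -0.028 to 0.19 for SLC1A4. For both drugs against Wee1 inhibitor II they ranged from -0.060 to 0.17 for SLC1A5 and -1.50 to 0.00098 for SLC6A9, and between the single drugs from -0.24 to 0.25 for SLC7A11 and -0.059 to 0.25 for SLC1A5.

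Same-numbered arrays of different groups did not deviate together: over 15 pairs the correlation of deviations was -0.14 to 0.07, with 0 over 0.1, so the numbers were not taken as a pairing. With the replicate number as a block 0 members were called for both drugs against 17-AAG and 1 against Wee1 inhibitor II. Of all genes 15.6% and 11.1% were called. In that fit SLC1A5 was gained for both drugs against control (adjusted p = 0.0447), and 1483 genes in place of 2331 had a called interaction. Signals below 32 set to 32 left 7 differences of SLC6A9 without a value. Signal over background limits SLC6A9, and 2 control arrays limit every difference from control.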

Other observations

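Of 11 measured heat shock genes, whose products assist folding with Hsp90, 6 fell with Wee1 inhibitor II, 5 with 17-AAG and 3 with both drugs, where 1 rose. Over all genes 10.3%, 6.8% and 11.3% fell in that order, and 16.7% rose with both drugs. CHORDC1, an Hsp90 cochaperone, had a signal of 1799 on the control arrays, 752 with Wee1 inhibitor II, 851 with 17-AAG and 1191 with both drugs. Its interaction was 1.74 ± 0.12 (log2, SE, limma adjusted p = 0.000542). HSPA4L fell with Wee1 inhibitor II alone, from 152 to 35.0, and stood at 166 with both drugs, an interaction of 2.09 ± 0.20 (adjusted p = 0.00117). The interaction was called for 6 of the 11, all above the sum, beside 4.82% of all genes.

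Among marker genes of other cell types, the fibroblast list had summed signals of 1076 to 1221 on the control arrays, 421 to 474 with Wee1 inhibitor II, 1775 to 1910.0 with 17-AAG and 779.8 to 834 with both drugs. Most of this was LUM, with 294 to 1819 over the 11 arrays, while DCN reached at most 32.6 and COL3A1 at most 7.95. The 4 blood cell markers summed to 55.4 to 89.5 over the 11 arrays.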
